A study of Mus musculus with 12 samples.

Results

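The cytosolic ribosomal protein genes described here were 84 of the 13283 genes with a deposited level in mouse cytotoxic T lymphocytes (CTL). They were chosen by symbol alone, as Rpsa, Rplp0 to Rplp2, or Rpl or Rps followed by a number and at most a short ending (a, al, x, l or l1). Of the 84 genes, 52 encode proteins of the large ribosomal subunit and 32 proteins of the small subunit. The annotation called 81 of them protein coding and 3 of them, Rpl6l, Rpl32l and Rps4l, pseudogenes that the pattern let in. The pattern left out genes such as Rps3a1, Fau and Rack1, which also encode ribosomal proteins, and Rpl3l, Rpl10l and the pseudogene Rps12l1 matched it but had no row in the table.

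RNA sequencing was of CTL, which are effector CD8 T cells, from female mice aged 11 to 27 weeks. T cells were activated for 48 h through CD3 and CD28 and expanded in the cytokines IL-2, at 20 ng/mL, and IL-12, at 2 ng/mL. On day 6 they received DMSO as vehicle or 10 µM IC87114, which blocks the p110δ subunit of PI3K (PI3Kdi), for 24 h. WT CTL carried GzmB cre alone, and FOXO1-GFP KO CTL carried GzmB cre with a floxed FOXO1-GFP allele, so all 4 groups expressed Cre, under a granzyme B promoter that becomes active as T cells turn into effectors. Viable CD8+ cells were sorted, FOXO1-GFP KO cells also for absence of GFP. The 4 groups (WT, WT+PI3Kdi, FOXO1-GFP KO and FOXO1-GFP KO+PI3Kdi) held 3 libraries each, numbered as biological replicates BR1 to BR3. A BR pair below is the vehicle and the PI3Kdi library that share a genotype and a number. Whether the libraries of a pair came from 1 mouse is not in the labels, and p-values measure the spread between these samples, which may be technical.

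Foxo1 was between 5.77 and 10.5 FPKM in the 6 WT libraries and between 0.58 and 1.75 FPKM in the 6 FOXO1-GFP KO libraries, so every library went with its genotype label. All 8 CD8 T cell markers were present, with a summed level of 9341 to 13763 FPKM, and no erythroid or testis germ cell marker had a row. The CD4 T cell list (3 of 4 genes) summed to between 4.96 and 8.24 FPKM, the myeloid list (2 of 5) to between 14.7 and 27.01 FPKM, nearly all of it Cd68, and the skeletal muscle list (Ckm alone of 2) to at most 0.65 FPKM. The B cell list (3 of 6, with Cd79a and Ms4a1 among those that had no row) summed to between 11.4 and 19.5 FPKM in WT libraries and between 4.31 and 6.88 FPKM in FOXO1-GFP KO libraries, without overlap. Depth, recovered from the spacing of low values, was between 12.9 and 48.0 M reads. No 2 libraries were alike, since at most 1.42% of values were equal between any 2 of them.

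Ribosomal proteins assemble with ribosomal RNA into the small subunit, which reads the mRNA, and the large subunit, which joins amino acids. Their mRNAs are among the most abundant of growing cells, and activated T cells make many ribosomes. In mammals these mRNAs typically begin with a C followed by a run of pyrimidines, the 5′ terminal oligopyrimidine (TOP) motif, through which the kinase mTORC1 and the RNA-binding protein LARP1 control their translation and stability. PI3K p110δ acts upstream of AKT, which keeps FOXO1 out of the nucleus, and in many cells AKT can also activate mTORC1. For CD8 T cells the authors state, from their earlier work, that mTORC1 activity does not require p110δ. Ribosome loading was not measured here, and the values are levels of mRNA relative to the other mRNAs of a library. In bulk libraries, fewer cells of a type and less RNA per cell cannot be told apart.

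A promoter sequence was given for 62 of the 84 genes (RefSeq, GRCm38.p6, 250 bases before to 50 bases after the annotated start). The 30 bases around the annotated start are shown for 7 genes, 4 with a run that opens the transcript and, for comparison, Rps27l, Rpl22 and Rpl22l1 without one there, because this motif is what the mRNAs of this family are known for. Capitals mark 1 run (a C and at least 4 further pyrimidines) in each gene but Rpl22, which had none within 10 bases of the start. The marked run is the one at the annotated start where a run began there. Otherwise it is the longest that began within 10 bases of it. Pyrimidines just before the capitals and other runs, as in Rps27l, are in lower case. The annotated start is the sixteenth base, and each sequence reads 5′ to 3′ on the strand of the gene. Rps6 lies at chr4:86857353-86857382 on the minus strand, Rpl38 at chr11:114668565-114668594 on the plus strand, Rplp2 at chr7:141447636-141447665 on the plus strand and Rps27 at chr3:90213634-90213663 on the minus strand. Rps27l lies at chr9:66946071-66946100, Rpl22 at chr4:152325711-152325740 and Rpl22l1 at chr3:28805493-28805522, all on the plus strand.
Rps6: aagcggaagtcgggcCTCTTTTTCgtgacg
Rpl38: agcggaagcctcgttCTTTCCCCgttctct
Rplp2: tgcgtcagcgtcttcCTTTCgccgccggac
Rps27: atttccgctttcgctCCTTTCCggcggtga
Rps27l: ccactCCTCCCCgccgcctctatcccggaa
Rpl22: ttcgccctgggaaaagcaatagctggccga
Rpl22l1: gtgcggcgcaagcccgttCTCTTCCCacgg
A run began exactly at the annotated start in 13 of the 62 genes (20.97%), against 2.49% of 27025 promoters of all genes. Within 10 bases of the start on either side, the run was found in 35 of 62 (56.5%) against 30.8% of all promoters. Among sequence motifs searched on both strands of the 300 bases, CCGGAAG, the core bound by ETS factors such as GABP, was in 24 of 62 (38.7%) against 9.12% of all promoters, AAGATGGC, the core bound by YY1, in 5 of 62 (8.06%) against 2.88%, and TATAAA, the TATA box, in 7 of 62 (11.3%) against 14.2%. Annotated starts can be some bases off the start used in CTL, so an absent match says only that the letters are not in the window.

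These mRNAs were among the most abundant of CTL. The median gene of the family had a mean of 453 FPKM (reads scaled to exon length and library size) over the 12 libraries, where the median of all genes was 5.05 FPKM. The family held 41 of the 100 highest genes, and 75 of its members were over 100 FPKM. The highest levels per length were those of Rplp1 (mean 3165 FPKM, between 2045 and 4379), a protein of the ribosomal stalk that recruits translation factors, Rps15 (2053 FPKM), Rpl32 (1900 FPKM) and Rplp0 (1771 FPKM), the base of the stalk. Neighbours in the order of the means overlapped across libraries, as Rpl32 (1237 to 2634 FPKM) and Rplp0 (1463 to 2041 FPKM) did, except where Rpl22l1 (74.3 to 125.5 FPKM) was followed by Rpl7l1 (27.8 to 38.2 FPKM) and Rpl13a (18.1 to 36.4 FPKM) by Rpl32l (1.30 to 5.34 FPKM).

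**Figure D1:**
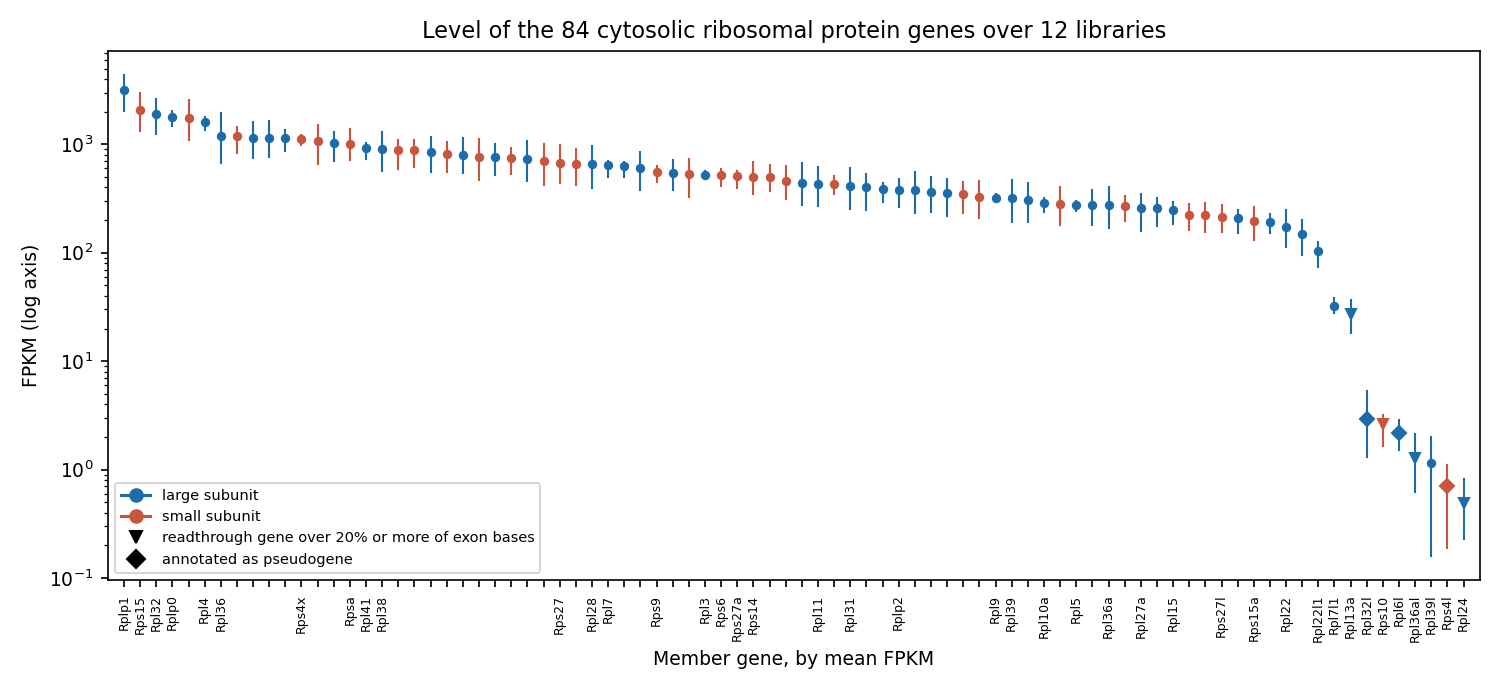
Mean level in FPKM (log axis) of each of the 84 ribosomal protein genes, ordered by mean, with bars from the lowest to the highest of the 12 libraries; genes discussed in the text are labelled. Apart from 9 genes at the right, the means lie between 103 and 3165 FPKM. The markers show that 7 of those 9 are annotated pseudogenes or have 20% or more of their exon bases under other same-strand genes (the readthrough marker).

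Of the 84 genes, 7 had a mean under 10 FPKM: Rpl32l (2.95 FPKM), Rps10 (2.61), Rpl6l (2.17), Rpl36al (1.28), Rpl39l (1.16), Rps4l (0.698) and Rpl24 (0.488). Rpl24, Rps10, Rpl36al and also Rpl13a (27.2 FPKM) are each overlapped by other annotated genes on their own strand, such as RPS10-NUDT3 for Rps10. These cover 46.99%, 20.6%, 24.5% and 35.4% of their exon bases. The authors' counter leaves out reads that fall in 2 genes on the same strand, and Rpl24 and Rps10 encode proteins found in every ribosome, so a low listed level of these 4 genes may not be low expression. The 3 annotated pseudogenes Rpl32l, Rpl6l and Rps4l had 191 to 528 estimated reads over the 12 libraries together. Rpl39l, a copy of Rpl39 known from testis, had between 2 and 55.9 estimated reads in a library and Rpl24 between 5 and 35.1. Ribosomal protein genes have many processed pseudogenes. A median of 42.0% of the 75-base windows of a member's transcript, with a range from 0 to 98.5%, occurred in another annotated gene, and reads that map to several places were not counted. Levels were also divided by the summed length of all annotated exons, which was 6270 bases for Rps15a (mean 198 FPKM) and 499 bases for Rplp1. These limits bear on the order of the members.

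The summed share of the family differed between BR pairs more than between groups. The 84 genes took 11.5, 14.2 and 15.5% of the summed FPKM in WT BR1 to BR3, and 11.7, 14.8 and 15.9% in WT+PI3Kdi. In FOXO1-GFP KO the share was 13.1, 13.3 and 16.0%, and with PI3Kdi it was 15.1, 15.2 and 17.4%. The WT means were 13.8 ± 2.06% without and 14.1 ± 2.18% with PI3Kdi, and the FOXO1-GFP KO means 14.1 ± 1.62% and 15.9 ± 1.27% (SD, n = 3). BR1 was the lowest library of both WT groups, BR3 was the highest of each of the 4 groups, and all 4 groups overlapped. Left per read instead of per length, the group means were 7.86, 8.22, 8.29 and 9.55% of estimated reads in the same order. Within a pair the share was higher with PI3Kdi in all 6 pairs, by 0.194, 0.529 and 0.360 percentage points in WT and by 1.99, 1.93 and 1.35 percentage points in FOXO1-GFP KO. Large subunit genes held 6.87 to 10.3% and small subunit genes 4.63 to 7.06% of a library.

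**Figure D2:**
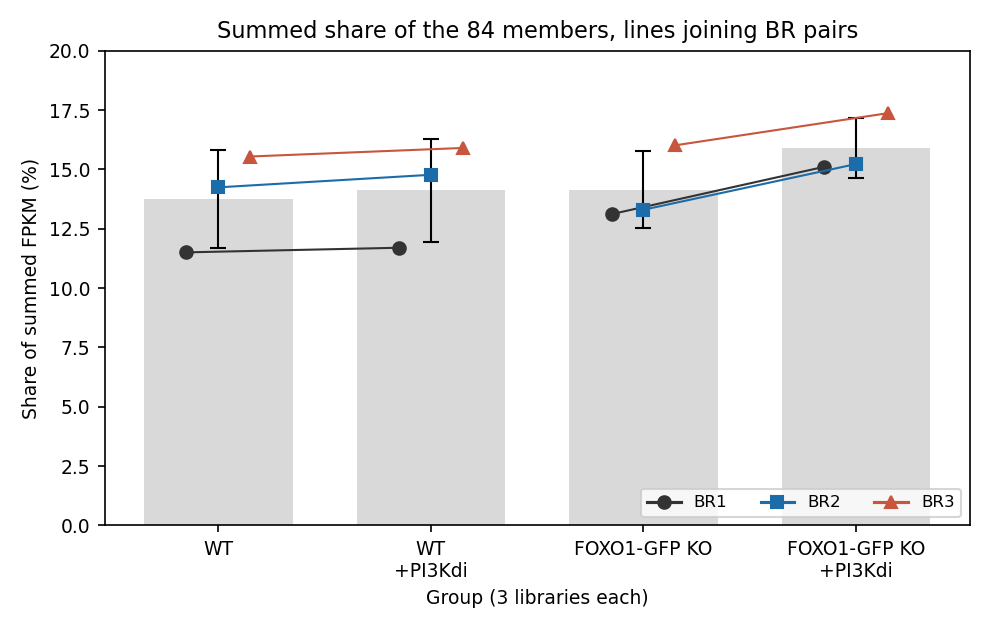
Share of the summed FPKM taken by the 84 ribosomal protein genes in each library (points, with lines joining BR pairs), with group means (bars) and SD (error bars, n = 3). The WT lines are nearly level, the 3 FOXO1-GFP KO lines climb by 1.35 to 1.99 percentage points, and BR3 is the top point of each group.

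The genes moved together. Measured as log2(FPKM + 0.1) minus the mean of each gene, the median member of the WT libraries was at -0.53, 0.01 and 0.19 without and at -0.47, 0.07 and 0.18 with PI3Kdi. In FOXO1-GFP KO it was at -0.17, -0.20 and 0.25 without and at 0.10, 0.09 and 0.44 with PI3Kdi. In WT BR1, 1 of the 84 genes was above its own mean, and in FOXO1-GFP KO+PI3Kdi BR1 to BR3 it was 81, 82 and 78. Large and small subunit genes had like medians, for instance -0.55 and -0.49 in WT BR1 and 0.46 and 0.39 in FOXO1-GFP KO+PI3Kdi BR3. Each gene was correlated over the 12 libraries with the mean profile of the family (Pearson's r, a description, since libraries share pairs and scaling): the median r was 0.98, and 66 of the 84 genes (78.6%) were over 0.9, against 7.97% of the 10291 non-members averaging 1 FPKM or more. Below 0.5 were Rpl39l, Rpl7l1 and Rpl24, and also Rpl3 (r = 0.43) and Rpl9 (r = 0.47), which sit in the body of the large subunit and varied little in any library.

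**Figure D3:**
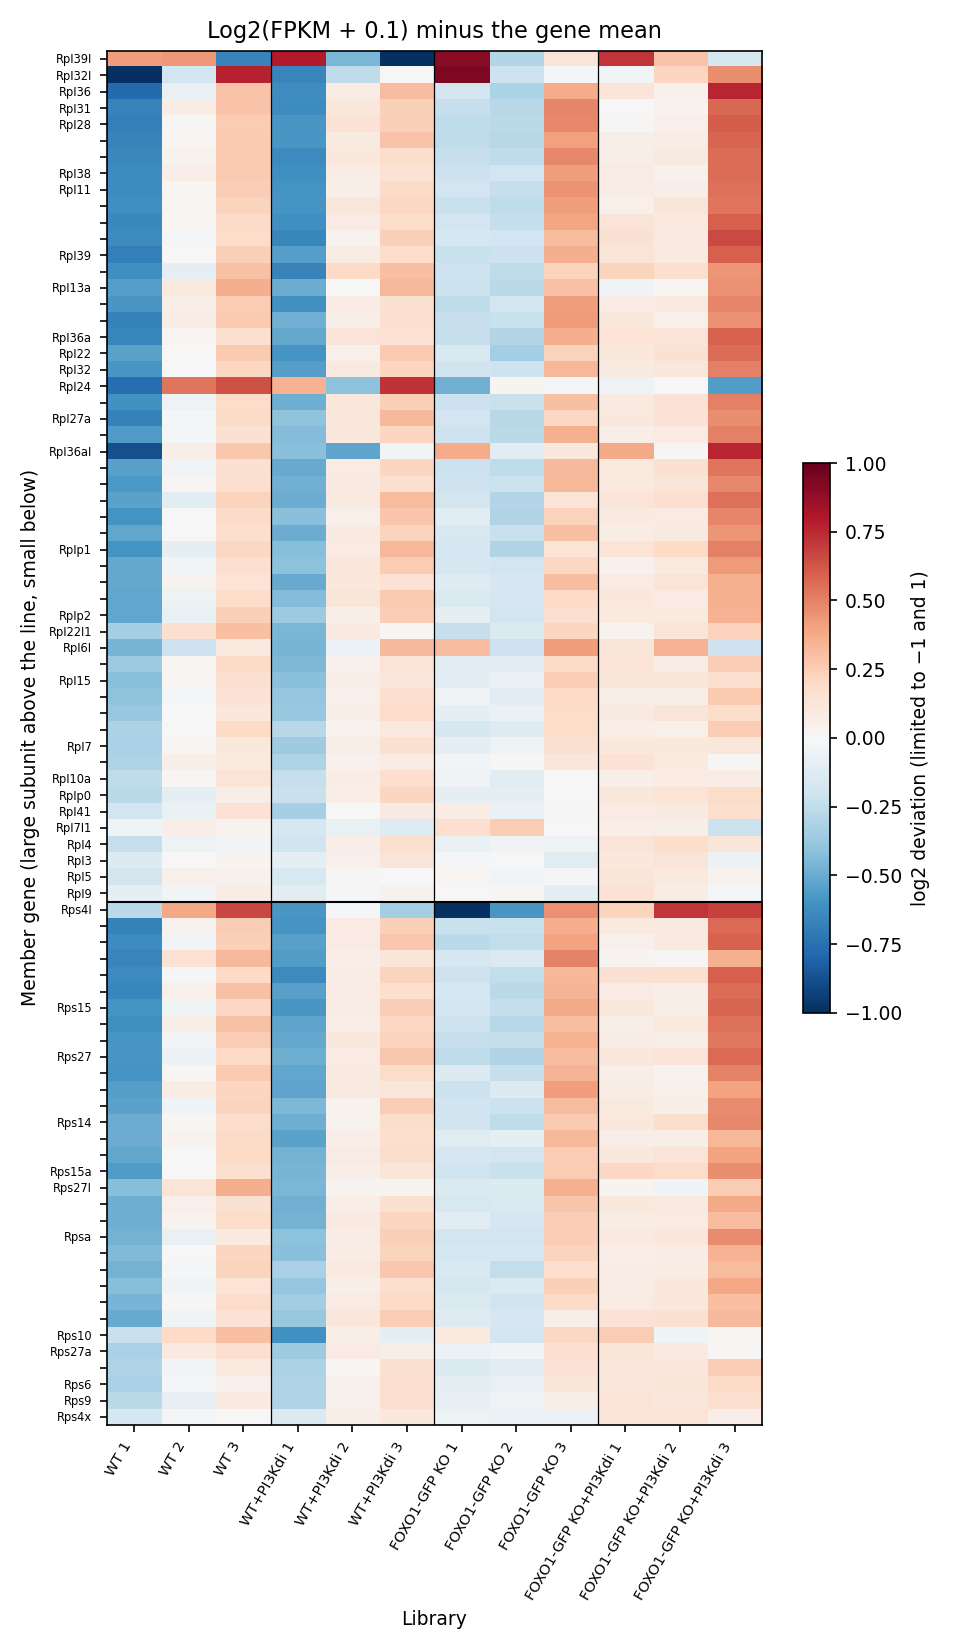
Log2(FPKM + 0.1) minus the gene mean for the 84 genes (rows, large subunit above the line, ordered by spread between BR pairs) in the 12 libraries (columns), with labels on genes discussed in the text. The column of WT BR1 is low (median -0.53) and that of FOXO1-GFP KO+PI3Kdi BR3 high (median 0.44) for nearly every gene, while rows at the foot of each block, such as Rpl9, Rpl5 and Rps4x, are pale throughout; colours are limited to -1 and 1.

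The difference between BR pairs within a genotype passed the test (limma F test over pairs, adjusted p under 0.05) for 78 of the 84 genes (92.9%), against 59.6% of all 13283 genes. The 6 that did not were Rpl24, Rpl6l, Rpl32l, Rpl36al, Rps4l and Rps4x. Pairs held a median of 78.1% of the sum of squares of a member over the 12 libraries, against 65.1% for all genes averaging 1 FPKM or more. Genotype held 10.1%, PI3Kdi 6.01% and their interaction 2.63% (medians over members), against 8.27, 6.39 and 1.64% for all genes averaging 1 FPKM or more. Pairs have more degrees of freedom than any of these 3, so their share is not on the same footing. The libraries that were low in the family were also low in short mRNAs in general: the third of other genes with the shortest summed exons had a median log2 deviation of -0.26 in WT BR1, -0.24 in WT+PI3Kdi BR1 and 0.16 in FOXO1-GFP KO+PI3Kdi BR3, and the third with the longest had 0.24, 0.23 and -0.16. Mitochondrially encoded mRNAs took 2.88% of the FPKM in WT BR1, 2.92% in WT+PI3Kdi BR1, and 5.73 and 6.38% in FOXO1-GFP KO BR3 without and with PI3Kdi. Their part in the differences between pairs was not tested.

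Members differed in how far they followed the pairs. The SD between pairs of log2(FPKM + 0.1) was largest for Rpl39l (0.79), Rps4l (0.47) and Rpl32l (0.46), which rest on few reads, and, among genes over 100 FPKM, for Rpl36 (0.45), Rpl31 (0.43) and Rpl28 (0.43). It was smallest for Rpl9 (0.07), Rpl5 (0.08), which carries 5S RNA into the large subunit, and Rps4x (0.08), a protein of the small subunit encoded on X. Rpl36 in WT was at 670, 1088 and 1393 FPKM without and 744, 1206 and 1422 FPKM with PI3Kdi, and in FOXO1-GFP KO at 1007, 918 and 1485 FPKM without and 1254, 1178 and 1940 FPKM with it. BR1 was its lowest WT library and BR3 its highest in every group. Rpl5 in WT was at 244, 286 and 284 FPKM without and 247, 279 and 278 FPKM with PI3Kdi, and in FOXO1-GFP KO at 280, 271 and 273 FPKM without and 301, 296 and 284 FPKM with it, and both WT BR1 libraries were the lowest. The spread went with coding length. Members encoding up to 130 amino acids (27 genes) had a median SD between pairs of 0.35, those of 132 to 184 (27 genes) 0.33 and those of 188 to 419 (27 genes) 0.21. Spearman's rho between coding length and this SD was -0.56 over the 81 genes with a coding length, as a description, since the genes share libraries. The same order held in non-members averaging 1 FPKM or more, at 0.27 (587 genes), 0.21 (621 genes) and 0.17 (3275 genes) in the matching length classes, so the median of ribosomal protein genes lay above theirs in each class. An exception was Rpl41, which encodes only 25 amino acids and had an SD of 0.14.

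**Figure D4:**
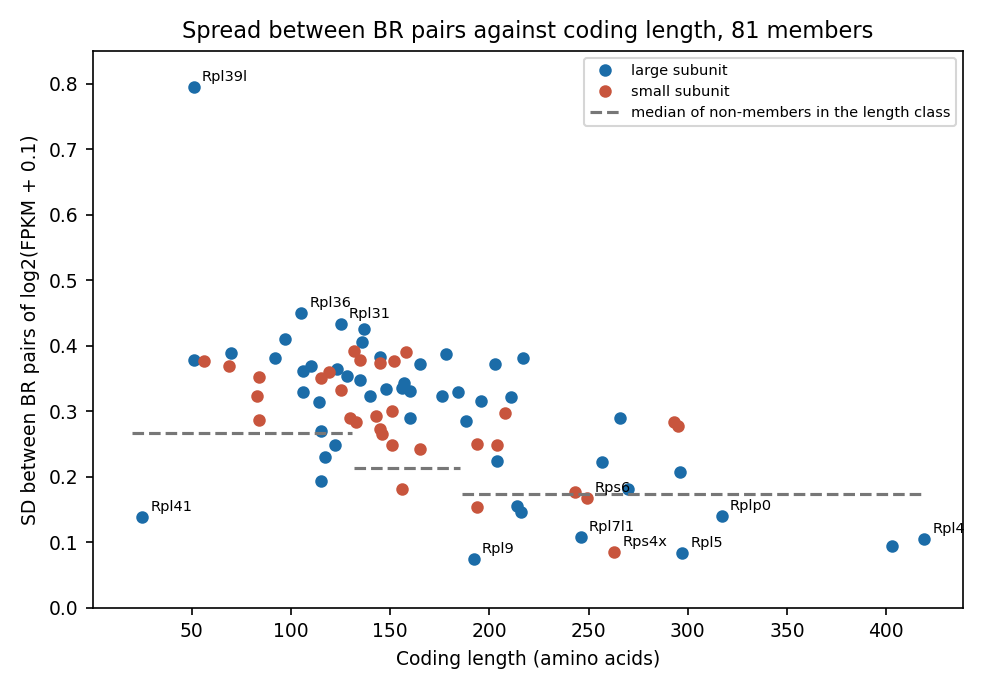
SD between BR pairs of log2(FPKM + 0.1) for 81 ribosomal protein genes against coding length in amino acids, by subunit, with dashed lines at the median of other genes in the same length class (0.27, 0.21 and 0.17). Genes of long proteins such as Rpl4, Rpl5 and Rps4x lie low, the middle of the shortest class lies between 0.30 and 0.38 (quartiles), and Rpl41 and Rpl39l stand apart.

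In WT CTL the levels with PI3Kdi were close to those without. The median log2 fold change of the 84 genes was 0.04, against -0.04 over all genes, and 60 lay above 0 (71.4%, against 39.9% of all genes). None was called (limma on log2(FPKM + 0.1), adjusted p under 0.05 and fold change over 1.5), where 0.0753% of all genes were called higher and 0.0226% lower, and none was below an unadjusted p of 0.05, against 2.86% of all genes upwards and 2.28% downwards. With the BR pairs as a block, 1.53% of all genes were called higher and 1.05% lower, and again none of the 84. The block left no member past an adjusted p of 0.05 either, against 3.88% of all genes upwards and 3.53% downwards. At an unadjusted p of 0.05 the block gave no member upwards, against 9.24% of all genes, and 3 downwards (3.57%, against 14.4%). Within the pairs the median change was 0.04, 0.07 and 0.00, and 36 genes were higher with PI3Kdi in all 3 pairs, 42.9% of the family against 16.7% of all genes, and 6 lower (7.14%, against 29.5%). Among members reaching a mean of 1 FPKM in a group, the largest fitted differences were those of Rpl27a (0.18 ± 0.24, SE), Rplp1 (0.16 ± 0.27) and Rpl6l (0.13 ± 0.25) upwards and of Rpl39l (-0.65 ± 0.61), Rps10 (-0.30 ± 0.21) and Rpl22l1 (-0.16 ± 0.19) downwards, on the log2 scale. Below that level, Rps4l was at -0.57 ± 0.40. Rpl7l1, a relative of Rpl7 known from ribosome assembly, was the only member whose groups did not overlap: it was at 31.4, 33.8 and 33.1 FPKM in WT and at 28.6, 30.6 and 29.5 FPKM in WT+PI3Kdi. Groups were lower without overlap for 5.81% of all genes and higher without overlap for 4.43%.

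In FOXO1-GFP KO CTL the levels with PI3Kdi were higher in nearly the whole family, by a small amount. The median log2 fold change was 0.22 against -0.02 over all genes, and 80 of the 84 genes lay above 0 (95.2%, against 46.6% of all genes). Within the pairs the median change was 0.25, 0.29 and 0.15, which are folds of 1.19, 1.22 and 1.11. Higher in all 3 pairs were 70 genes, 83.3% of the family against 23.1% of all genes. The groups overlapped for most members, and 9 genes (10.7%) were higher with PI3Kdi without overlap, against 5.28% of all genes, among them Rplp0, Rplp1, Rpl4, Rpl5, Rpl10a, Rpl41, Rps4x and Rps9. No member was lower without overlap, against 4.8% of all genes. None of the 84 was called by limma without a block, where 0.0452% of all genes were called higher and none lower, and 1 member, Rps4l, was below an unadjusted p of 0.05 upwards, against 3.46% of all genes, and none downwards, against 1.71%. The lowest fitted changes among members reaching 1 FPKM were those of Rpl7l1 (-0.17 ± 0.10), Rpl6l (-0.08 ± 0.25) and Rpl32l (-0.02 ± 0.41). The median of 0.22 was 0.12 without FOXO1-GFP KO+PI3Kdi BR3 and 0.37 without FOXO1-GFP KO BR3, and 0.16 once trends with transcript length and GC content were taken out. In the same libraries, the third of other genes with the shortest summed exons had median log2 deviations of -0.05, -0.07 and 0.14 without and 0.04, 0.03 and 0.16 with PI3Kdi. Mitochondrially encoded mRNAs took 3.15, 3.41 and 5.73% of the FPKM without and 3.43, 3.71 and 6.38% with PI3Kdi. Both were higher with PI3Kdi in every pair, and their part in the result was not tested.

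**Figure D5:**
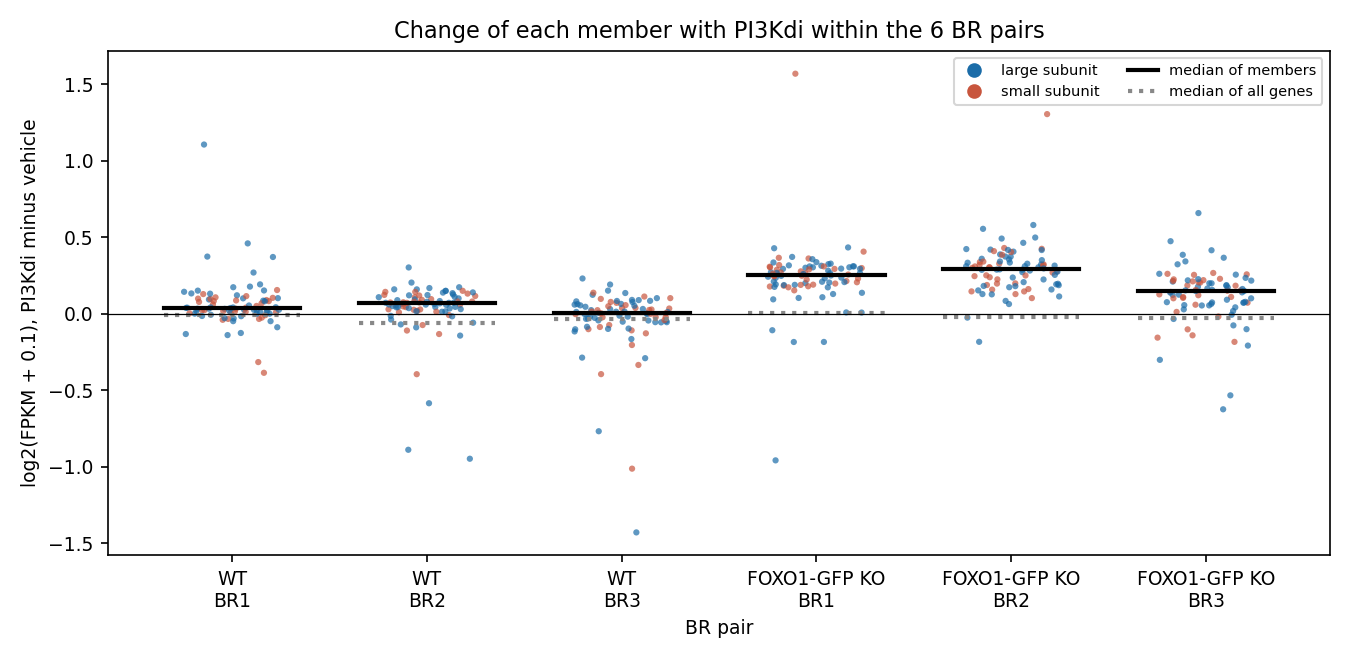
Change of each of the 84 genes with PI3Kdi within each BR pair, as the difference of log2(FPKM + 0.1), with the median of the members (solid line) and of all genes (dotted line). In the 3 FOXO1-GFP KO pairs the members' medians are 0.25, 0.29 and 0.15, and in the 3 WT pairs 0.04, 0.07 and 0.00.

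With the BR pairs as a random block in limma, 51 members were below an unadjusted p of 0.05 upwards in FOXO1-GFP KO (60.7%, against 14.6% of all genes) and 1 downwards (1.19%, against 14.8%). In this fit 7 members rose past an adjusted p of 0.05 in FOXO1-GFP KO (8.33%, against 6.02% of all genes) and 1 fell (1.19%, against 4.06%). Rplp1 was at 2748, 2518 and 3399 FPKM without and 3405, 3555 and 4379 FPKM with PI3Kdi and rose by 0.39 ± 0.11 on the log2 scale (SE, limma adjusted p = 0.0460). Rpl22, which binds RNA on the surface of the large subunit and is needed for T cell development, was at 152, 133 and 198 FPKM without and 182, 187 and 248 FPKM with PI3Kdi and rose by 0.36 ± 0.10 (limma adjusted p = 0.0437). In both genes every pair was higher with PI3Kdi, and the groups overlapped in Rpl22 but not in Rplp1. Rps15a (0.34 ± 0.09) and Rps14 (0.32 ± 0.09), both of the small subunit, also passed in this fit (limma adjusted p = 0.0316 and 0.0481). Rpl7l1 fell by 0.17 ± 0.05 (limma adjusted p = 0.0419), from 36.4, 38.2 and 32.1 FPKM to 33.8, 33.6 and 27.8 FPKM. Only Rps4l, an annotated pseudogene, also passed the fold change of 1.5 and was called (1.03 ± 0.24, limma adjusted p = 0.0205, where 1.82% of all genes were called higher and 0.964% lower), on 4, 12 and 11 estimated reads without and 22, 22.1 and 18 with PI3Kdi. In the fit without a block, leaving out 1 library moved the change of Rps4l to 0.61 (without FOXO1-GFP KO BR1), that of Rpl22 to 0.22 (without FOXO1-GFP KO+PI3Kdi BR3) or 0.23 (without FOXO1-GFP KO BR2) and that of Rpl7l1 to -0.07 (without FOXO1-GFP KO+PI3Kdi BR3). The number past an adjusted p depended on the form of the block: with the pairs as fixed terms 52 of the 84 genes rose (61.9%, against 7.90% of all genes) and 1 fell (against 6.39%). It also changed when single pairs were left out of the fit with the random block. Without FOXO1-GFP KO BR1 or BR2 no member passed, and without FOXO1-GFP KO BR3 or without WT BR2 only 1 did. The share of all genes in these fits is not given, so this change is not read as particular to the family. Members share scaling and pairs, so these counts do not add up to independent evidence.

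Members with a known role beyond the core lay within the range of the family. Of the stalk, Rplp0 was at 1657, 1656 and 1758 FPKM in FOXO1-GFP KO and at 1903, 1934 and 1996 FPKM with PI3Kdi (log2 difference 0.20), and Rplp2 was at 354, 330 and 421 and then 403, 403 and 480 FPKM (0.22). Of the 5S RNA carriers, Rpl5 differed by 0.10 and Rpl11 by 0.22 on the log2 scale. Rps6, the substrate of S6 kinase whose phosphorylation is a common readout of mTORC1, was at 485, 490 and 561 FPKM without and 556, 561 and 589 FPKM with PI3Kdi, a log2 difference of 0.16 ± 0.15. In WT the same gene was at 411, 511 and 533 FPKM without and 416, 532 and 576 FPKM with PI3Kdi, a log2 difference of 0.06 ± 0.15. Rpsa, once known as the laminin receptor, differed by 0.27 in FOXO1-GFP KO and 0.11 in WT, Rpl38, known for a part in translation of Hox mRNAs, by 0.22 and -0.03, Rpl10a by 0.12 and 0.04 and Rps27a, a fusion with ubiquitin, by 0.05 and -0.05. None of these passed the limma test without a block or with the random block. The medians by subunit were 0.22 (large) and 0.23 (small) in FOXO1-GFP KO and 0.04 for both in WT. By coding length they were 0.24, 0.26 and 0.16 from the shortest to the longest class in FOXO1-GFP KO, and 0.08, 0.04 and 0.00 in other genes of the same classes. Members with a pyrimidine run at the annotated start had a median of 0.22 (13 genes), those with a run within 10 bases 0.21 (22 genes) and those with none 0.22 (27 genes).

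Between genotypes no member was called. Without PI3Kdi the median log2 fold change of FOXO1-GFP KO over WT was 0.08 (-0.01 over all genes), with 0.0678% of all genes called higher and 0.263% lower by limma. No member had groups that did not overlap, against 3.54% of all genes higher and 6.79% lower without overlap. None was below an unadjusted p of 0.05, against 1.79% of all genes upwards and 4.72% downwards, and 76 lay above 0 (90.5%, against 47.3%). With the random block 0.0376% of all genes were called higher and 0.196% lower, and again no member. With PI3Kdi the median was 0.27 (0.01 over all genes), 83 of the 84 genes lay above 0 (98.8%, against 51.0% of all genes), and 0.437% of all genes were called higher and 1.02% lower. On adjusted p alone these were 0.459% and 1.08%, with no member, and at an unadjusted p of 0.05 there was 1 member upwards (Rpl36al, against 4.16% of all genes) and none downwards (against 6.03%). Higher without overlap were 5 members (5.95%, against 6.85% of all genes): Rpl5, Rpl15, Rps15a, Rpl36al and Rps4l. No member was lower without overlap, against 7.9% of all genes. Rpl15, a core protein of the large subunit, was at 184, 259 and 266 FPKM in WT+PI3Kdi and at 268, 268 and 277 FPKM in FOXO1-GFP KO+PI3Kdi, so WT+PI3Kdi BR1 lay far below the other 5 libraries. The median of 0.27 was 0.06 without WT+PI3Kdi BR1 and 0.40 without WT+PI3Kdi BR3. B cell markers also differed by genotype, Ighm being at 7.61 to 12.98 FPKM in WT libraries and 1.64 to 3.71 FPKM in FOXO1-GFP KO libraries, and their part in the result was not tested. Among members reaching 1 FPKM, the largest fitted differences between genotypes were in genes of few reads, Rpl39l (0.87 ± 0.61), Rpl36al (0.70 ± 0.30) and Rpl32l (0.52 ± 0.41) with PI3Kdi and Rpl32l (0.39 ± 0.41), Rpl6l (0.36 ± 0.25) and Rpl36al (0.31 ± 0.30) without. With PI3Kdi, Rpl39l was at 0.11 without WT+PI3Kdi BR3 and at 1.56 without WT+PI3Kdi BR1. Downwards they were small without PI3Kdi, as in Rpl22l1 (-0.10 ± 0.19), Rps10 (-0.05 ± 0.21) and Rpl13a (-0.03 ± 0.27). Below that level, Rps4l was at 0.86 ± 0.40 with and -0.75 ± 0.40 without PI3Kdi.

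Whether the response to PI3Kdi differed between genotypes was tested directly. The median difference of the log2 responses (FOXO1-GFP KO minus WT) was 0.18 against 0.02 over all genes, and 81 of the 84 genes lay above 0 (96.4%, against 54.7% of all genes). No gene was called in limma without a block, member or not, and 1 member (Rps4l) and 0.828% of all genes were below an unadjusted p of 0.05 upwards, and no member and 0.678% downwards. With the random block 0.00753% of all genes were called higher and 0.0151% lower, none of them a member, and 6 members (7.14%) and 6.88% of all genes were below an unadjusted p of 0.05 upwards. Downwards there was no member, against 3.92% of all genes. No member passed an adjusted p of 0.05 in either fit. In the fit without a block, the largest difference was that of Rps4l (1.61 ± 0.56). With the random block its limma adjusted p was 0.0966. Among members reaching 1 FPKM the largest upwards, without a block, were those of Rpl39l (0.68 ± 0.87), Rpl36al (0.40 ± 0.42) and Rpl22 (0.36 ± 0.36). Those downwards were Rpl6l (-0.21 ± 0.35) and Rpl7l1 (-0.02 ± 0.14). The median of 0.18 ranged from -0.02 to 0.41 when single libraries or pairs were left out.

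Paralogue pairs were compared within libraries, which takes out scaling. Rpl22l1, which can take the place of Rpl22, made up 32.6 to 41.1% of the FPKM of the pair. The log2 ratio of Rpl22l1 to Rpl22 in WT was -0.52, -0.57 and -0.69 without and -0.59, -0.68 and -0.97 with PI3Kdi, and in FOXO1-GFP KO -0.80, -0.53 and -0.74 without and -0.80, -0.75 and -1.05 with it. The ratio was lower with PI3Kdi in 5 of the 6 pairs and nearly level in FOXO1-GFP KO BR1, and the groups overlapped. The log2 ratio of Rps27l, a p53 target in many cells, to Rps27 in WT was -1.48, -1.44 and -1.47 without and -1.60, -1.69 and -1.88 with PI3Kdi, and in FOXO1-GFP KO -1.53, -1.48 and -1.59 without and -1.72, -1.80 and -1.95 with it. It was lower with PI3Kdi in all 6 pairs and did not overlap between vehicle and PI3Kdi in either genotype. Both were noticed after the values were seen and were not tested. The fall in all 6 BR pairs was not particular to this ratio, since that of Rpl7l1 to Rpl7 fell in all 6 as well. How often the ratio of any 2 genes does not overlap was not counted. The log2 fold changes with PI3Kdi were -0.16 ± 0.22 for Rps27l and 0.10 ± 0.26 for Rps27 in WT and 0.06 ± 0.22 and 0.35 ± 0.26 in FOXO1-GFP KO. Almost all windows of the Rps27 transcript (98.5%) are shared with other genes. Rpl7l1 made up 3.88 to 5.86% of its pair with Rpl7, Rpl36al at most 0.705% with Rpl36a and Rpl39l at most 0.864% with Rpl39. The log2 ratio of Rpl7l1 to Rpl7 was -4.01, -4.23 and -4.36 in WT against -4.11, -4.44 and -4.57 in WT+PI3Kdi. FOXO1-GFP KO libraries had -4.03, -4.00 and -4.45 with vehicle against -4.34, -4.34 and -4.62 with the inhibitor. The groups of this ratio overlapped in both genotypes. The ratios of Rpl36al and Rpl39l to their parents rose in some BR pairs and fell in others.

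The other genes of the pathway came from lists of function. Without a block, no gene of these lists was called in any of the 5 comparisons. In FOXO1-GFP KO with PI3Kdi the median log2 fold change was 0.05 for 77 mitochondrial ribosomal protein genes, 0.12 for 23 other mRNAs of the TOP class such as translation elongation factors, -0.12 for 40 ribosome biogenesis genes, -0.04 for 17 regulators and 0.22 for 9 mitochondrially encoded mRNAs. With the random block 2 TOP class genes and 2 regulators rose past an adjusted p of 0.05 in FOXO1-GFP KO (6.02% of all genes did), and 1 biogenesis and 1 mitochondrial ribosomal protein gene fell (4.06% of all genes did). In WT the same lists had medians of -0.06, 0.01, -0.03, -0.02 and -0.03, and with the random block 1 regulator rose (3.88% of all genes did) and no gene of these lists fell (3.53% of all genes did). Larp1 was at 94.6, 67.8 and 62.7 FPKM in WT and 83.0, 84.7 and 57.7 FPKM in FOXO1-GFP KO, and with PI3Kdi at 95.0, 66.1 and 65.0 FPKM in WT and 79.98, 72.7 and 55.1 FPKM in FOXO1-GFP KO, so all 4 groups overlapped. Of the ribosomal genes outside the pattern, Fau differed by 0.26, Rack1 by 0.15 and Rps3a1 by 0.12 on the log2 scale with PI3Kdi in FOXO1-GFP KO. The 5 other genes with a profile most like the mean of the family over the 12 libraries were Mrps16 (Pearson's r = 0.994), Ndufa7, Lamtor4, Atp6v1f and Ndufb10 (0.989), with means of 38.4 to 112 FPKM. Mrps16 was at 25.4, 37.4 and 41.8 FPKM in WT and 41.4, 40.9 and 52.3 FPKM in FOXO1-GFP KO+PI3Kdi.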

How the data were processed

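Libraries were prepared from 300 ng of total RNA with a stranded poly(A) kit and sequenced as 75-base paired reads. The authors aligned reads with STAR 2.7.1a to GRCm38.p6 and counted them per gene with the counter of STAR on an Ensembl annotation. They then filtered low genes and scaled libraries by TMM. The deposited table gives these values as FPKM to 2 decimals and has 0 columns of other samples. Genes removed by the authors' filter were not tested, and FPKM depends on the summed exon length. Depth was recovered from genes up to 400 bases long, and in held-out genes up to 800 bases 98.3 to 99.4% of values under 300 reads were whole reads, within the rounding of the table (0.005 FPKM, where this was under 0.2 reads) plus 0.01 reads and 0.01% of the value. Evenly spread values would fall within this tolerance in 10.3 to 31.2% of cases.

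The genes and lists were chosen with earlier results of these data known. Levels were taken as log2(FPKM + 0.1), which understates changes of low genes. limma 3.58.1 (R 4.3.3) fitted 4 group means to all 13283 genes with a mean-variance trend, and p-values were adjusted by Benjamini-Hochberg over all genes. A gene was called at an adjusted p under 0.05 and a fold change over 1.5. Replicate numbers pair vehicle and PI3Kdi libraries: their departures from group means had r of 0.594 to 0.838 within the 6 pairs and of -0.409 to 0.730 between same-numbered libraries of the 2 genotypes, so pairs were used within genotype only. The block was a random effect (correlation 0.757) or fixed terms. Tested on simulated data for PI3Kdi in WT, where 200 of the 13283 genes had a log2 change of 1, the fit without a block recovered 72.0% and the random block 97.5%, with 0 and 11 unchanged genes called. Positions, lengths and coding lengths came from GENCODE M21 (GRCm38), where 13276 genes matched, and start sequences from RefSeq.

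Named members were the highest and lowest 5, the 3 largest rises and falls per comparison, called members, paralogue pairs, members with a textbook role, the 3 largest and smallest SDs between pairs and, of other genes, Foxo1, ribosomal genes outside the pattern and the 5 most like profiles. Rpl36, Rpl31, Rpl28, Rpl3, Rps14, Rps15a, Rps3a1, Larp1, Ighm and members whose groups did not overlap were named after their values were seen. Some genes that these rules name are not reported here. Alternatives were the pseudocount, a filter on low values, other scalings, removal of length and GC trends, voom on estimated reads, the block, and leaving out each library. The block with centring on the members, the block with scaling to non-members and the block with a whole pair left out were added after seeing the data.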

Additional observations from a re-analysis of the deposited data

How the results depend on the processing

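Pairs of libraries enter as a replicate block. For PI3Kdi in FOXO1-GFP KO, the 0 members called without a block became 1 (Rps4l) with the random or the fixed block, with the random block after removing length and GC trends, with voom, centred on the members and rescaled to non-members. The members past an adjusted p went from 0 to 8 with the random block, 53 with fixed terms, 18 with length and GC trends removed and the block, 11 with voom and the block, 15 centred on the members and 11 rescaled to non-members. In WT they went from 0 to 1 with length and GC trends removed and the block and to 3 centred with the block. For the difference of responses, centring with the block called 1, which also was the 1 past an adjusted p. Members differing between BR pairs numbered 45 when centred, against 78. With libraries or pairs left out, members called in FOXO1-GFP KO numbered 0 to 1 and those past an adjusted p 0 to 12. The block changed no other call. The cause of these moves was not tested. For PI3Kdi in FOXO1-GFP KO, shares of all genes past an adjusted p are given above for the random block and the fixed terms. For the other settings here no such share is given, so their counts are not read as particular to the family.

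Some log2 differences reversed sign when a library or pair was left out. For PI3Kdi in WT the ranges were -0.078 to 0.39 (Rpl27a), -0.061 to 0.37 (Rplp1), -0.069 to 0.33 (Rpl6l), -1.34 to 0.11 (Rpl39l) and -0.35 to 0.0088 (Rpl22l1). For PI3Kdi in FOXO1-GFP KO they were -0.40 to 0.19 (Rpl6l) and -0.27 to 0.45 (Rpl32l). For genotype without PI3Kdi they were -0.053 to 0.85 (Rpl32l), -0.041 to 0.53 (Rpl36al), -0.28 to 0.030 (Rpl22l1), -0.21 to 0.060 (Rps10) and -0.29 to 0.16 (Rpl13a). For the difference of responses they were -0.076 to 1.37 (Rpl39l), -0.53 to 0.058 (Rpl6l) and -0.091 to 0.073 (Rpl7l1). Others kept their sign but moved by over 1.5 times. For PI3Kdi these were Rps10 in WT (-0.46 to -0.11) and, in FOXO1-GFP KO, Rps4l (0.61 to 1.51), Rpl22 (0.22 to 0.52) and Rpl7l1 (-0.24 to -0.074). For genotype they were Rpl39l (0.11 to 1.56) and Rpl32l (0.34 to 0.67) with PI3Kdi and Rpl6l (0.23 to 0.55) without, and for the difference of responses Rpl22 (0.11 to 0.59) and Rpl36al (0.17 to 0.75). The median member in WT ranged from -0.17 to 0.23 and, for genotype without PI3Kdi, from -0.12 to 0.23. Depth limits the members under 10 FPKM, where a library can hold as few as 2 reads.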
